A study of Mus musculus with 6 samples.

Results

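The genes described here encode the major histocompatibility complex (MHC) of the mouse and the proteins that load it with peptide. They were taken as every entry of the deposited gene table whose symbol starts with H2-, together with B2m, Cd74, Ciita, Nlrc5, Tap1, Tap2, Tapbp, Tapbpl, Psmb8, Psmb9, Psmb10, Erap1 and Cd1d1. This gave 56 entries among the 23997 symbols of the table, of which 45 reached a mean of at least 1 over the 6 libraries and were tested. The 45 comprise 33 of 43 entries of the class I pathway, 11 of 12 of the class II pathway, and H2-Ke6, which lies in the region but encodes a steroid dehydrogenase. The RNA came from LSK cells (Lin-, Sca-1+ and c-Kit+), the bone marrow fraction that holds hematopoietic stem cells and multipotent progenitors, sorted as negative for B220, CD11b, CD3ε, Gr1 and Ter119. Mirc11-/- mice carry a germline deletion of the cluster of Mir23a, Mir27a and Mir24-2, so that every cell of the animal lacks it. They were compared with wildtype mice. Both genotypes were on the C57BL/6 background, 6 to 8 weeks old and in normal hematopoiesis, and each is represented by 3 libraries made from the RNA of 3 to 4 pooled mice. The comparison asks whether LSK cells without this miRNA cluster hold different amounts of the MHC transcripts.

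MHC class I molecules pair a heavy chain with β2-microglobulin, carry peptides cut from proteins of the cytosol, and stand on nearly all nucleated cells, stem cells included. Those peptides are cut by the proteasome, whose catalytic subunits are exchanged for those of the immunoproteasome under interferon, pumped into the endoplasmic reticulum by the TAP transporter and fitted to the groove with the help of tapasin. Class II molecules are made of an α and a β chain, are guarded by the invariant chain until they reach endosomes, and are best known from dendritic cells, macrophages and B cells. NLRC5 activates the promoters of class I genes and CIITA those of class II genes, both through proteins bound to the same set of short promoter elements.

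Values are normalized counts, that is numbers of reads scaled by one size factor per library, so that 1 read counts as 0.946 to 1.04. Reads in genes numbered 15029379 to 17051541 in Mirc11-/- libraries and 15772826 to 16250826 in wildtype libraries. The deleted cluster matched the genotype labels. Mir23a, Mir27a and Mir24-2 had 0 reads in every Mirc11-/- library, against 51, 54 and 73 reads over the 3 wildtype libraries, which makes them at least 17-fold, 18-fold and 24.3-fold lower when a floor of 3 reads over the group stands in for 0. Mirc11-/- library 3 stood apart from the other Mirc11-/- libraries. On the first principal component of all genes tested, which held 31.3% of the variance, Mirc11-/- libraries 1 to 3 were at 54.6, 25.5 and -19.5, and wildtype libraries at -13.5, -20.9 and -26.2. The summed level of 10 markers of LSK cells was 25403, 32771 and 45228 in the Mirc11-/- libraries and 38365, 38592 and 45624 in the wildtype libraries. For 15 erythroid markers, it was 53757, 51498 and 25474 in Mirc11-/- and 32672, 24996 and 24368 in wildtype libraries. These 2 sums therefore set Mirc11-/- libraries 1 and 2 apart from the rest, and results are given with and without library 3 where it decides them. Of the genes that define the gate, Kit had 6644 to 9950 normalized counts in Mirc11-/- libraries and 8576 to 9416 in wildtype libraries, and Ly6a, which encodes Sca-1, had 374 to 534 in Mirc11-/- and 444 to 683 in wildtype libraries. The markers of other cell types were not called by limma in any list in the fit of all 6 libraries, but several lists differed in level between libraries. Calls made without library 3 are given further on. Of 12 B cell markers, 10 had a log2 fold change above 0 (median 0.80). The B cell receptor gene Cd79b held most of their sum of 504, 653 and 814 in Mirc11-/- and 634, 598 and 565 in wildtype libraries, and Ms4a1, which encodes CD20, had 5.67 to 11.4 in Mirc11-/- and 1.98 to 5.07 in wildtype libraries. Igll1, with an unadjusted limma p of 0.0139, had 11.3 to 36.3 in Mirc11-/- and 4.05 to 12.9 in wildtype libraries. The 10 dendritic cell markers summed to 1509, 1438 and 1655 in Mirc11-/- and 1621, 1761 and 1847 in wildtype libraries, with 5 above 0 and 5 below. The groups did not overlap for 1 gene on each side. Bst2 had 636 to 812 in Mirc11-/- and 874 to 1128 in wildtype libraries. The scarce Cd209a had 4.02 to 10.4 in Mirc11-/- and 0 to 0.992 in wildtype libraries. Of 11 macrophage and monocyte markers 8 were below 0 (median -0.17), and their sum of 11906, 8907 and 5563 in Mirc11-/- and 7976, 9175 and 6802 in wildtype libraries was led by the monocyte gene Ly6c2. Among them C1qa, C1qb, C1qc and Cd5l had at most 9.06 in Mirc11-/- and 8.93 in wildtype libraries, while Cd68 had 287 to 323 in Mirc11-/- and 339 to 618 in wildtype libraries. Of 12 neutrophil granule genes 8 were above 0 (median 0.09), 4 of them with an unadjusted limma p under 0.05, and the groups did not overlap for Mmp8, at 37.2 to 100.3 in Mirc11-/- and 16.8 to 30.8 in wildtype libraries, and Mmp9, at 56.3 to 86.1 in Mirc11-/- and 13.9 to 38.5 in wildtype libraries. Of the T and NK cell markers 6 of 9 were below 0, and of the endothelial and stromal markers 4 of 8. The part of any of these cell types in the results below was not tested. In bulk libraries, fewer cells of a type and less RNA per cell cannot be told apart.

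Many promoters of these genes hold letters that match elements known to act with NLRC5 and CIITA, and examples are printed before the values because the results are ordered by the same division into class I and class II. RefSeq sequences on GRCm38.p6, each from 250 bases before the transcription start to 50 after it, were matched by symbol for 28 of the 45 genes. They were searched on both strands for the Y box (ATTGG), for an X2 site (TGANG) whose first base lies 20 to 28 bases before that of a Y box on the same strand, for the κB motif (GGGATTCCC) and for an interferon element (GAANNGAAA or GAAANNGAA). Each line gives 120 bases upstream of the start, 5′ to 3′ on the strand of the gene and aligned on the Y box, with matches in capitals. From left to right the capitals mark the κB motif and the interferon element where present, then the X2 site and the Y box. In H2-D1, H2-Eb1 and H2-DMb1 a further X2 match starts 3 bases before the one in capitals and overlaps it, and is left in lower case. No other matches overlap in these stretches, apart from letters of X2 without a Y box at that distance, which were not counted.
H2-K1: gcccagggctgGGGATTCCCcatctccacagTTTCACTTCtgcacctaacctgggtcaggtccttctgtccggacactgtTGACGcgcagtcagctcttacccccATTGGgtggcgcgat
H2-D1: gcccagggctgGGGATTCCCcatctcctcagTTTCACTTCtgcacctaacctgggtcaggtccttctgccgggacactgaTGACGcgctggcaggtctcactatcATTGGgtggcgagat
B2m: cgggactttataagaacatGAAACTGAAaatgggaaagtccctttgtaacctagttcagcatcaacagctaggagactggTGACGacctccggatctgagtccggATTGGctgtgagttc
H2-Aa: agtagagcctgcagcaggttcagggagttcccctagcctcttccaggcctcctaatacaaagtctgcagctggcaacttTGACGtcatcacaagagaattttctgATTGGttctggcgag
H2-Eb1: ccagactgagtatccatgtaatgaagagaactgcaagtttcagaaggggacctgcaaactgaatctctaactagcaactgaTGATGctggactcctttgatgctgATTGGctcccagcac
H2-DMb1: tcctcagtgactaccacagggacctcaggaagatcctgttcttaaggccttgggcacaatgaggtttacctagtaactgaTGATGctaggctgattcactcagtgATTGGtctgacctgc
H2-Ob: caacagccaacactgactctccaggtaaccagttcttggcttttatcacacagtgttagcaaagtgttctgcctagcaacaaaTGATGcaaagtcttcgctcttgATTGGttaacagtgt

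These stretches lie at chr17:34000349-34000468 (minus strand) for H2-K1, chr17:35262913-35263032 (plus strand) for H2-D1, chr2:122147529-122147648 (plus strand) for B2m, chr17:34287857-34287976 (minus strand) for H2-Aa, chr17:34305703-34305822 (plus strand) for H2-Eb1, chr17:34153025-34153144 (plus strand) for H2-DMb1 and chr17:34238743-34238862 (plus strand) for H2-Ob. The stretches of H2-K1 and H2-D1, the heavy chain genes of C57BL/6, are identical at 108 of 120 positions (90.0%). From the X2 site in capitals to the Y box, first base to first base, it was 25 bases in H2-K1, H2-D1, B2m and H2-DMb1, 26 in H2-Aa, 24 in H2-Eb1 and 22 in H2-Ob. From the overlapping X2 match it was 28 bases in H2-D1 and H2-DMb1 and 27 in H2-Eb1. Such a pair was found in 7 of 19 class I promoters (H2-K1, H2-D1, H2-Q4, H2-Q6, H2-Q7, H2-M3 and B2m) and in 6 of 8 class II promoters (H2-Aa, H2-Eb1, H2-Eb2, H2-DMb1, H2-DMb2 and H2-Ob), compared with 2.76% of the 27025 genes with a promoter in the table. A Y box, with or without X2, was in 22 of the 28 and in 41.1% of all genes. The κB motif was found in H2-K1, H2-D1, H2-Q6 and H2-Q7 and in 0.414% of all genes, and an interferon element in 11 of 19 class I promoters, 0 of 8 class II promoters and 16.8% of all genes. A match is a run of letters and no measurement of binding, and the motifs were chosen after these sequences had been read.

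**Figure D1:**
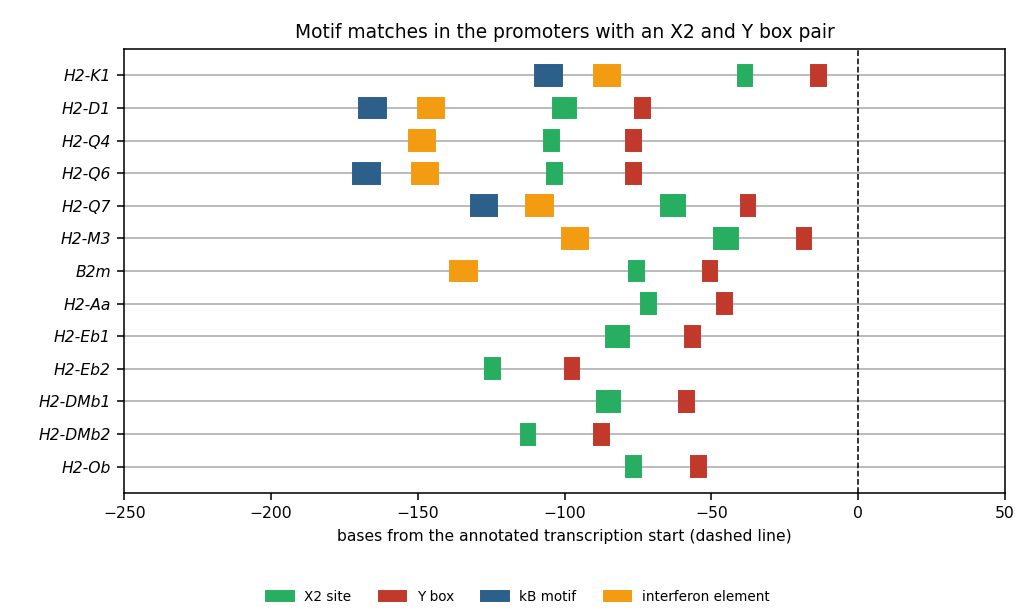
Matches to the 4 motifs in the 13 promoters that hold an X2 and Y box pair, by distance in bases from the annotated transcription start, from 250 bases before it to 50 after it. Class I genes are the upper 7 rows and class II genes the lower 6, and blocks of X2 that look wide are 2 overlapping matches.

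Most of the 45 genes were lower in Mirc11-/- LSK cells by a small margin, and no gene among them passed the test across all genes. The test was limma on log2(value + 1), two-sided and with a trend of variance on mean, and p-values were adjusted by Benjamini-Hochberg over the 15662 genes tested. It called 5 genes of the whole table (0.0319%) and 0 of the 45. The smallest adjusted p of limma was 0.451 among class I genes (Nlrc5) and 0.444 among class II genes (H2-DMa). The log2 fold change, Mirc11-/- over wildtype, was below 0 for 29 of 33 class I genes (median -0.19), for 11 of 11 class II genes (median -0.45) and for 49.5% of all genes (median 0.00246). The class I count holds 4 entries that repeat a near-identical neighbour as described further on, and without them it was 25 of 29 (median -0.18). An unadjusted limma p under 0.05 went with a lower level for 5 of 45 genes, which were H2-DMa, Nlrc5, Psmb8, Tap2 and H2-L (11.1%, against 4.09% of all genes), and with a higher level for 0 of 45, against 4.15% of all genes. H2-L is one of the 4 repeats, and without them the class I part of the lower genes was 3 of 29 in place of 4 of 33. Every Mirc11-/- value was below every wildtype value for 4 of 45 genes (8.89%, against 6.53% of all genes), H2-DMa, Nlrc5, Psmb8 and Tap2. The reverse held for 0 of 45, against 6.42% of all genes. By edgeR's quasi-likelihood test and by DESeq2 on the recovered reads 0 of the 45 were called as well, with 7 unadjusted p under 0.05 in each (against 8.66% of all genes by edgeR and 7.75% by DESeq2). Over the whole table edgeR called 4 genes (0.0255%) and DESeq2 125 (0.798%). With array weights, in a fit that gave Mirc11-/- library 2 most of the weight and did not converge, limma called 19 of the 45 and 36.2% of all genes.

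**Figure D2:**
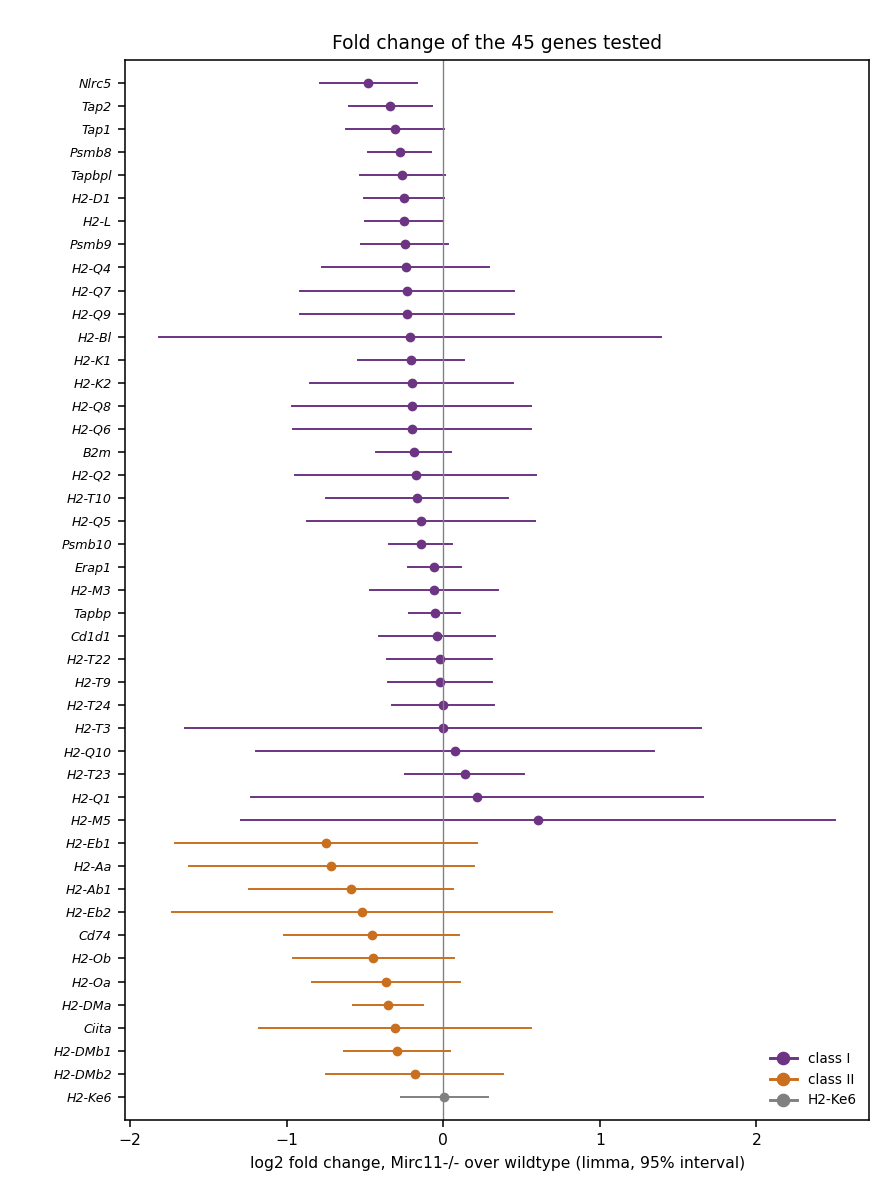
Log2 fold change of each gene tested, Mirc11-/- over wildtype, with the 95% interval of limma (3 libraries per genotype). Points of class I genes (purple) reach down to -0.48 in Nlrc5 and those of class II genes (orange) to -0.75 in H2-Eb1, and 40 of the 45 points lie left of 0.

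Among class I genes the lowest fold change was that of Nlrc5, the transactivator of the class. Nlrc5 lies on chromosome 8 (chr8:94434356-94527272), 10.2 Mb from the deleted cluster. Its normalized counts were 1134, 1146 and 1568 in Mirc11-/- libraries 1 to 3, against 1617, 1733 and 1969 in wildtype libraries 1 to 3. The groups did not overlap, but Mirc11-/- library 3 came close to the lowest wildtype library. The log2 fold change was -0.48 ± 0.14 (SE; 95% interval -0.79 to -0.17; limma adjusted p = 0.451, unadjusted p = 0.00703). Per kb of exon, Nlrc5 averaged 151 normalized counts in Mirc11-/- cells and 209 in wildtype cells.

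The heavy chains and the light chain of class I had, per kb of exon, the highest levels of the set. H2-K1 and H2-D1 encode the heavy chains that present peptide to CD8 T cells, and B2m encodes β2-microglobulin. Per kb of exon, B2m averaged 20743 normalized counts in Mirc11-/- and 23525 in wildtype cells, H2-K1 6864 in Mirc11-/- and 7826 in wildtype cells, and H2-D1 5774 in Mirc11-/- and 6872 in wildtype cells. H2-K1 (chr17:33996017-34000347) had 16190, 19538 and 24773 normalized counts in Mirc11-/- libraries and 21762, 21848 and 25368 in wildtype libraries. Mirc11-/- libraries 1 and 2 were below all wildtype libraries and library 3 was above 2 of them. H2-D1 (chr17:35262730-35267499) had 13360, 14434 and 16875 in Mirc11-/- and 16600, 16819 and 19747 in wildtype libraries. B2m (chr2:122147686-122153083) had 15626, 17525 and 20368 in Mirc11-/- and 20039, 20524 and 20131 in wildtype libraries. In these 3 genes the groups overlapped through Mirc11-/- library 3 alone. The log2 fold changes were -0.21 ± 0.15 for H2-K1, -0.25 ± 0.11 for H2-D1 and -0.19 ± 0.11 for B2m (SE; limma adjusted p = 0.714, 0.599 and 0.638). Together the 3 transcripts took 0.280%, 0.330% and 0.404% of the reads in genes in Mirc11-/- libraries and 0.367%, 0.367% and 0.408% in wildtype libraries.

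H2-L, whose product is a further classical heavy chain in other haplotypes and is not made by the H-2b haplotype of C57BL/6, still had an entry with 10811, 11381 and 13464 normalized counts in Mirc11-/- libraries and 13317, 13354 and 15741 in wildtype libraries. Mirc11-/- library 3 lay above 2 of the wildtype libraries, so the groups overlapped. Its ratio to H2-D1 was 0.789 to 0.809 in all 6 libraries, so its log2 fold change of -0.25 ± 0.11 (SE; limma adjusted p = 0.597, unadjusted p = 0.0474) repeats that of H2-D1 and is uncertain as a gene of its own. Other entries repeat each other too. H2-Q7 and H2-Q9 had the same number of reads in every library, H2-Q6 and H2-Q8 differed by at most 1 read, and H2-T22 and H2-T9 by at most 4 reads. How reads shared by such near copies were assigned is not given in the sources used here.

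Of the 5 genes that carry peptides into the endoplasmic reticulum, trim them and load them, 3 had log2 fold changes of -0.26 to -0.34 and 2 were close to 0. Tap1 and Tap2 encode the paired subunits of the TAP transporter and stand beside Psmb8 and Psmb9 in the class II region of chromosome 17. Tap2 (chr17:34203527-34216321) had 4205, 4400 and 5701 normalized counts in Mirc11-/- libraries, against 6308, 5894 and 5748 in wildtype libraries. The groups did not overlap, although Mirc11-/- library 3 was just under the lowest wildtype library. Its log2 fold change was -0.34 ± 0.12 (SE; limma adjusted p = 0.502, unadjusted p = 0.0177). Tap1 (chr17:34187553-34197225) had 2903, 3032 and 4221 in Mirc11-/- and 4318, 4305 and 3792 in wildtype libraries. Here library 3 was within the wildtype range, and the log2 fold change was -0.31 ± 0.14 (SE; limma adjusted p = 0.600). Tapbpl, which encodes the tapasin-related editor TAPBPR, was at -0.26 ± 0.12 (SE; limma adjusted p = 0.600), with 501 to 595 normalized counts in Mirc11-/- and 571 to 718 in wildtype libraries. Tapbp, which encodes tapasin itself, and Erap1, which encodes the aminopeptidase that trims peptides to length, were at -0.05 and -0.06, each with an interval of -0.22 to 0.11.

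The immunoproteasome subunits Psmb8, Psmb9 and Psmb10 replace the constitutive catalytic subunits Psmb5, Psmb6 and Psmb7, which gives each an internal partner. Psmb8 (chr17:34197721-34201454) had 3839, 3697 and 4334 normalized counts in Mirc11-/- libraries, against 5010, 4931 and 4440 in wildtype libraries. All 3 Mirc11-/- values were below all wildtype values, with library 3 nearest to them. The log2 fold change was -0.28 ± 0.09 (SE; limma adjusted p = 0.488, unadjusted p = 0.0124). Psmb9 had 1371, 1339 and 1740 in Mirc11-/- and 1880, 1828 and 1554 in wildtype libraries, and Psmb10 had 1386, 1397 and 1517 in Mirc11-/- and 1681, 1628 and 1447 in wildtype libraries. Psmb10 lies on chromosome 8, 21.7 Mb from the deleted cluster. In both genes Mirc11-/- library 3 was between the wildtype values and the other Mirc11-/- libraries lay below them, and the log2 fold changes were -0.25 ± 0.12 and -0.14 ± 0.09 (SE; limma adjusted p = 0.619 and 0.667). The constitutive subunits were nearer to 0. Psmb5 was at -0.06, Psmb6 at -0.04 and Psmb7 at 0.06, each with an interval across 0. The ratio of Psmb8 to Psmb5 was 2.97, 3.22 and 4.09 in Mirc11-/- libraries, against 3.71, 4.04 and 4.14 in wildtype libraries. That of Psmb9 to Psmb6 was 0.692, 0.762 and 1.05 in Mirc11-/- and 0.968, 0.931 and 0.948 in wildtype libraries, and that of Psmb10 to Psmb7 was 0.517, 0.554 and 0.734 in Mirc11-/- and 0.654, 0.655 and 0.742 in wildtype libraries. In all 3 ratios Mirc11-/- libraries 1 and 2 were lowest of the 6, and library 3 was in or above the wildtype range. With 3 libraries against 3 an exact two-sided permutation test of such a ratio cannot go below p = 0.10, and none was run.

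**Figure D3:**
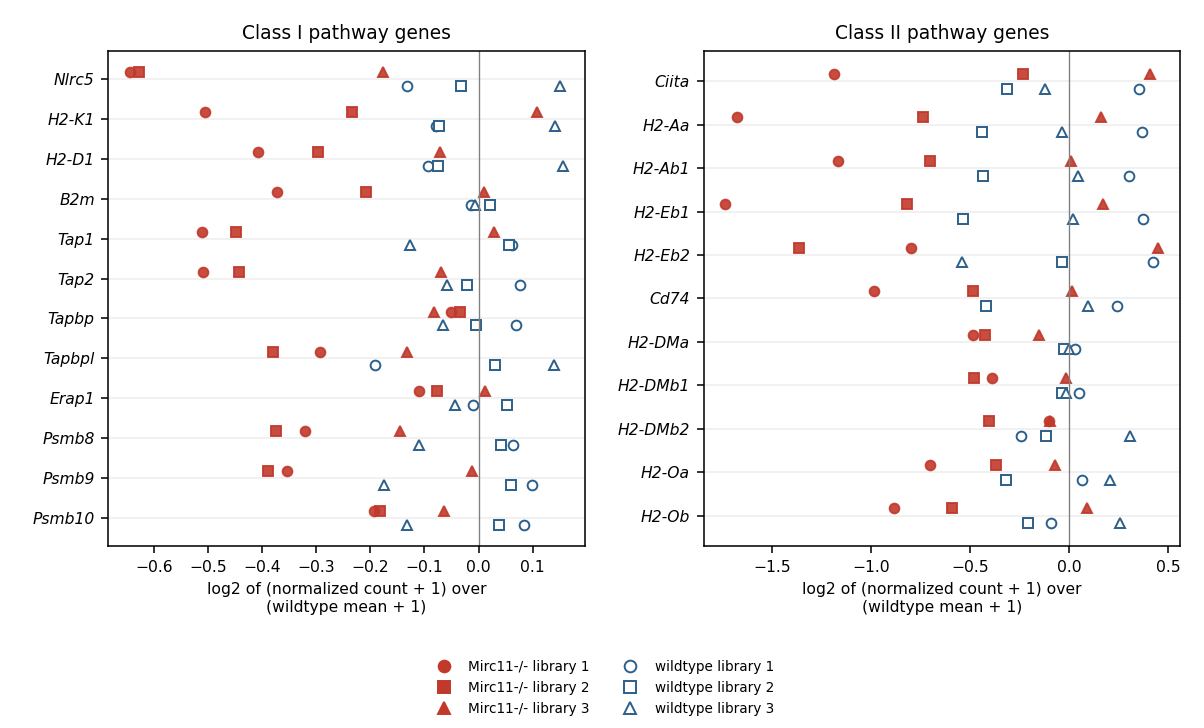
Each library as a point, as log2 of its normalized count plus 1 over the wildtype mean plus 1, for class I pathway genes (left) and class II pathway genes (right), with filled red symbols for Mirc11-/- and open blue symbols for wildtype libraries. Circles and squares of Mirc11-/- (libraries 1 and 2) lie left of most wildtype symbols, and the triangle (library 3) lies among them in most genes.

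Class Ib molecules have narrower roles than the classical ones. With the pseudogenes they made up 19 of the tested class I entries, of which 15 had a log2 fold change below 0 (median -0.14). H2-T23, which encodes Qa-1, the ligand of CD94/NKG2 receptors on natural killer cells, had 2334, 3077 and 3999 normalized counts in Mirc11-/- libraries, against 2715, 2684 and 2969 in wildtype libraries, with 1 Mirc11-/- library below and 2 above all wildtype libraries. Its log2 fold change was 0.14 ± 0.17 (SE; limma adjusted p = 0.837). H2-Q4 had 2231, 3428 and 4643 in Mirc11-/- and 3504, 3576 and 4668 in wildtype libraries. The Qa-2 genes spread widely among Mirc11-/- libraries. H2-Q7 had 829, 1530 and 2325 in Mirc11-/- and 1602, 1620 and 1841 in wildtype libraries, and H2-Q6 had 651, 1267 and 1906 in Mirc11-/- and 1178, 1176 and 1721 in wildtype libraries. In both, Mirc11-/- library 1 was the lowest of the 6 libraries and library 3 the highest, so that the spread among Mirc11-/- libraries was wider than the difference between genotypes. Log2 fold changes were -0.24 for H2-Q4, -0.23 for H2-Q7 and its repeat H2-Q9, and -0.20 for H2-Q6 and its repeat H2-Q8. Without Mirc11-/- library 1 they turned to 0.04, 0.16 and 0.22 for H2-Q4, H2-Q7 and H2-Q6.

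H2-T22, known as a ligand of γδ T cells, and its repeat H2-T9 averaged 798 ± 184 and 797 ± 182 normalized counts in Mirc11-/- cells and 798 ± 7.62 and 796 ± 6.78 in wildtype cells (SD, n = 3 each), with nearly equal means and unequal spread. H2-M3, which presents peptides that start with formyl-methionine, averaged 471 ± 115 in Mirc11-/- and 482 ± 47.9 in wildtype cells, and Cd1d1, which presents lipids to natural killer T cells, 630 ± 133 in Mirc11-/- and 641 ± 82.7 in wildtype cells (SD, n = 3 each). The polymorphic pseudogenes H2-Q5 and H2-T10 were at -0.14 and -0.17 on the log2 scale, the transcribed pseudogene H2-K2 at -0.20 and H2-T24 at -0.00265. H2-Q2 averaged 13.3 normalized counts in Mirc11-/- and 15.3 in wildtype cells, H2-Q10 14.1 in Mirc11-/- and 13.2 in wildtype cells, and H2-M5 4.95 in Mirc11-/- and 4.00 in wildtype cells. H2-Q1 averaged 3.87 in Mirc11-/- and 2.65 in wildtype cells, H2-Bl 1.95 in Mirc11-/- and 2.00 in wildtype cells, and H2-T3 1.01 in Mirc11-/- and 1.00 in wildtype cells, so that these last 3 rest on a few reads per library. Under the minimum, H2-M10.2 had 3 reads, all in wildtype library 1, and a mean of 0.493. The other 10 entries under the minimum, namely 9 genes of the H2-M cluster and H2-Ea-ps, had 0 reads in every library, and C57BL/6 mice are known to make no Eα chain. H2-Ke6 averaged 1017 ± 163 normalized counts in Mirc11-/- and 1004 ± 28.9 in wildtype cells (SD, n = 3 each).

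**Figure D4:**
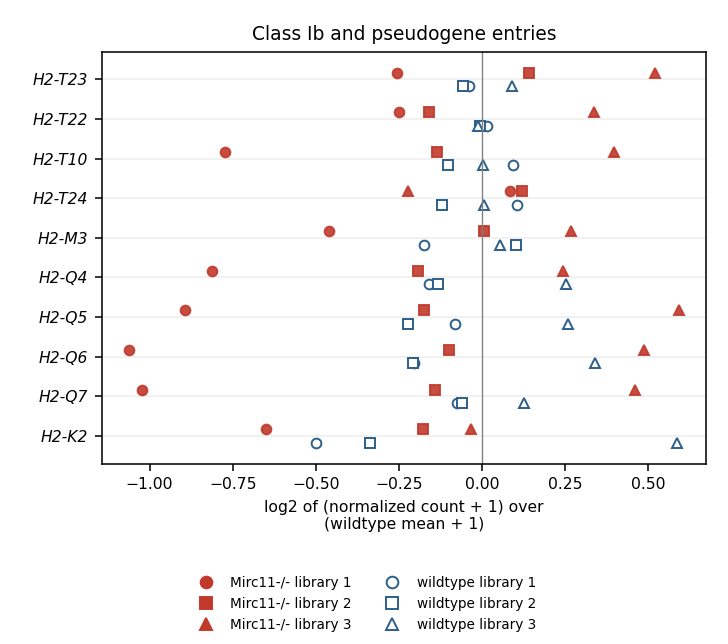
Class Ib and pseudogene entries with a mean over 100 normalized counts, repeats left out, as log2 of each library's normalized count plus 1 over the wildtype mean plus 1. Mirc11-/- library 1 (red circles) is the lowest of the 6 libraries in 9 of the 10 rows, and Mirc11-/- library 3 (red triangles) is the highest in 7.

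Class II transcripts were present in LSK cells, and the α and β chain genes H2-Eb1, H2-Aa and H2-Ab1 had the lowest log2 fold changes of the 45 genes, with wide intervals. Ciita (chr16:10480059-10528418), the transactivator of the class, had 39.7, 77.9 and 122 normalized counts in Mirc11-/- libraries, against 117, 73.4 and 84.1 in wildtype libraries. Mirc11-/- library 1 had the lowest level of the 6 and library 3 the highest, and the log2 fold change was -0.31 ± 0.38 (SE; limma adjusted p = 0.839). H2-Ab1 (chr17:34257689-34269419), the β chain of I-A, had 309, 427 and 698 in Mirc11-/- and 856, 513 and 716 in wildtype libraries. Its partner H2-Aa had 176, 338 and 630 in Mirc11-/- and 728, 415 and 549 in wildtype libraries, and H2-Eb1, the β chain of I-E, had 127, 240 and 478 in Mirc11-/- and 550, 293 and 430 in wildtype libraries. In all 3 genes Mirc11-/- library 1 was the lowest of the 6 libraries and wildtype library 1 the highest, and the groups overlapped. Their log2 fold changes were -0.59 ± 0.29 for H2-Ab1, -0.71 ± 0.40 for H2-Aa and -0.75 ± 0.42 for H2-Eb1 (SE; limma adjusted p = 0.617, 0.640 and 0.641). H2-Eb2 was scarce, with 4.15 to 17.1 normalized counts in Mirc11-/- and 8.11 to 16.8 in wildtype libraries. The 4 chain genes summed to 619, 1008 and 1823 in Mirc11-/- libraries and 2151, 1233 and 1703 in wildtype libraries. For each normalized count of Ciita there were 4.43, 4.33 and 5.17 of H2-Aa in Mirc11-/- libraries, against 6.20, 5.65 and 6.53 in wildtype libraries, a ratio whose groups did not overlap. The same ratio of H2-Ab1 was 7.79, 5.48 and 5.74 in Mirc11-/- and 7.29, 6.99 and 8.52 in wildtype libraries, and that of Cd74 was 22.3, 16.1 and 14.5 in Mirc11-/- and 17.7, 17.8 and 22.3 in wildtype libraries, both with overlap. The 3 ratios were chosen by hand and were not tested. They share the values of Ciita, which had 42, 75 and 121 reads in Mirc11-/- and 119, 74 and 83 in wildtype libraries.

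Cd74, the invariant chain that fills the class II groove until endosomes are reached, had 884, 1252 and 1769 normalized counts in Mirc11-/- libraries, against 2074, 1309 and 1872 in wildtype libraries. Mirc11-/- libraries 1 and 2 were below all wildtype libraries and library 3 was between them. The log2 fold change was -0.46 ± 0.25 (SE; limma adjusted p = 0.634). Per kb of exon, Cd74 averaged 775 in Mirc11-/- and 1043 in wildtype cells, above H2-Ab1 at 186 in Mirc11-/- and 271 in wildtype cells, H2-Eb1 at 145 in Mirc11-/- and 218 in wildtype cells, and H2-Aa at 100.3 in Mirc11-/- and 148 in wildtype cells. H2-DMa and H2-DMb1 encode the DM complex, which exchanges the remnant of the invariant chain for peptide. H2-DMa (chr17:34119541-34139101) had 1196, 1246 and 1503 in Mirc11-/- and 1707, 1642 and 1671 in wildtype libraries, with no overlap and with Mirc11-/- library 3 the nearest to wildtype. Its log2 fold change of -0.35 ± 0.10 (SE; 95% interval -0.58 to -0.13; limma adjusted p = 0.444, unadjusted p = 0.00623) had the smallest p of the 45. H2-DMb1 had 235, 220 and 305 in Mirc11-/- and 319, 301 and 305 in wildtype libraries, overlapping in library 3, for a log2 fold change of -0.30 ± 0.15 (SE; limma adjusted p = 0.623), and H2-DMb2, a second DM β chain gene, was at -0.18 ± 0.25. H2-Oa and H2-Ob encode the DO complex, which restrains DM. H2-Ob (chr17:34238903-34254414) had 1043, 1276 and 2047 in Mirc11-/- and 1808, 1664 and 2299 in wildtype libraries. Its Mirc11-/- library 3 lay between wildtype libraries and the other 2 below them. The log2 fold changes were -0.45 ± 0.23 for H2-Ob and -0.36 ± 0.21 for H2-Oa (SE; limma adjusted p = 0.629 and 0.641).

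The spread among Mirc11-/- libraries had the same shape in most of the set. Library 1 held the lowest and library 3 the highest of the Mirc11-/- values in 32 of the 45 genes (71.1%), compared with 26.8% of all genes tested. The sum of 8 class I processing genes (the Tap, Tapbp, Psmb and Erap1 genes) was 19736, 19960 and 23777 in Mirc11-/- libraries and 25705, 25155 and 23291 in wildtype libraries. That of H2-K1, H2-D1 and B2m was 45176, 51497 and 62017 in Mirc11-/- and 58402, 59191 and 65245 in wildtype libraries. In each sum Mirc11-/- libraries 1 and 2 were below every wildtype library and library 3 was not, and the LSK and erythroid marker sums given above set the same 2 libraries apart. Among the LSK markers, the cytokine receptor Flt3 had 5614, 6643 and 10820 normalized counts in Mirc11-/- and 9449, 9855 and 12040 in wildtype libraries, and Cd34 had 7475, 9009 and 13380 in Mirc11-/- and 12410, 12883 and 13794 in wildtype libraries. With the mean log2 level of the erythroid markers as a covariate in limma, the median log2 fold change of the 45 genes was -0.04 and 0 of them were called. The sum of the erythroid markers was above every wildtype library in Mirc11-/- libraries 1 and 2. The covariate therefore partly follows genotype, and this fit cannot separate genotype from the make-up of the cells. What part the make-up of the sorted cells has in the class I and class II values was not tested.

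**Figure D5:**
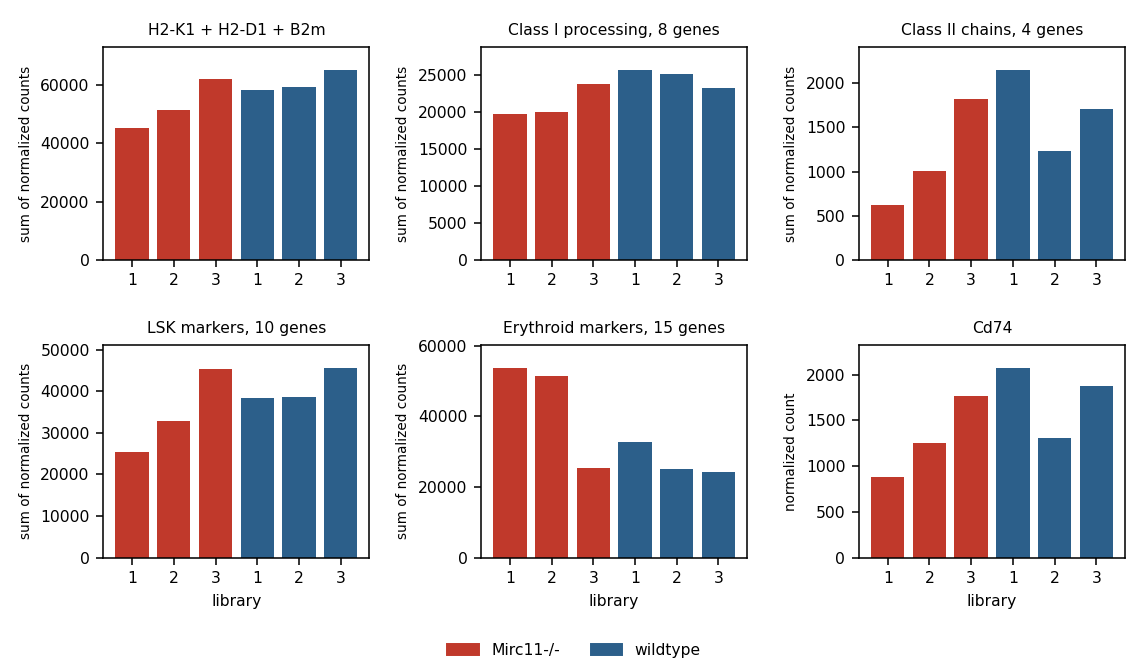
Normalized counts summed over 3 class I transcripts, 8 class I processing genes, 4 class II chain genes, 10 LSK markers and 15 erythroid markers, and the normalized count of Cd74, in each Mirc11-/- library (red) and wildtype library (blue), with bars from 0. Mirc11-/- libraries 1 and 2 are under every wildtype library in 5 panels and above every one in the erythroid panel, while Mirc11-/- library 3 is near the wildtype libraries in all 6.

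Without Mirc11-/- library 3, limma called 228 lower genes (1.46%) and 303 higher genes (1.94%) among 15633, and 6 of the 45 (13.3%) were among those called lower and 0 among those called higher. These were Nlrc5 at -0.63 (limma adjusted p = 0.0126), Tap2 at -0.47 (adjusted p = 0.0183), H2-DMa at -0.45 (adjusted p = 0.0210), Tap1 at -0.48 (adjusted p = 0.0230), H2-Ob at -0.72 (adjusted p = 0.0277) and H2-Ab1 at -0.90 (adjusted p = 0.0491). H2-Aa at -1.17 and H2-Eb1 at -1.23 came next, with limma adjusted p = 0.0540 and 0.0552. The median log2 fold change of the 45 was -0.37 without this library and 0.00319 over all genes. Without this library limma also called 13 of the 15 erythroid markers higher. Among these 13, Hba-a1 and Hba-a2 had the same reads in every library and so repeat each other. Of the 10 LSK markers limma called Flt3 (-0.77, limma adjusted p = 0.0122) and Cd34 (-0.67, limma adjusted p = 0.0115) lower. Of the markers of other cell types, Lck was called lower, and Ccr2 and Mmp8 were called higher. Without Mirc11-/- library 1, 29 of the 45 were below 0, the median was -0.07 and 0 were called, with Nlrc5 at -0.40, H2-DMa at -0.29, H2-Aa at -0.25, H2-Eb1 at -0.28 and Ciita at 0.12. Library 3 was singled out for its values, so the calls made without it are no independent test.

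Other genes of antigen presentation, which the rule does not include, had no common direction. Of 59 such genes tested in 7 lists, 29 had a log2 fold change below 0 (median 0.00341), 0 were called by limma, and an unadjusted p under 0.05 went with a lower level in 3 and with a higher level in 0. These lists were proteasome subunits and activators, chaperones of class I assembly, class I-like genes outside H2 and class II processing. The others were factors of the X and Y boxes with their co-activators, interferon receptors with their transcription factors, and costimulation and checkpoint genes. The 3 genes were Hspa5, the chaperone BiP of the endoplasmic reticulum, at -0.46 ± 0.14 (SE; limma adjusted p = 0.465), Irf7, an interferon regulatory factor, at -0.50 ± 0.17 (adjusted p = 0.502), and Socs1, an inhibitor of JAK kinases, at -0.73 ± 0.26 (adjusted p = 0.524). Irf7 had 469, 351 and 574 normalized counts in Mirc11-/- libraries, against 615, 667 and 647 in wildtype libraries, with no overlap. The interferon list had 10 of 15 genes below 0 (median -0.14).

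Irf1, which binds interferon elements, had 1624, 1858 and 2130 normalized counts in Mirc11-/- and 1954, 2262 and 2953 in wildtype libraries, with overlap, and was at -0.34 ± 0.16 (SE; limma adjusted p = 0.601). The proteins that hold NLRC5 and CIITA at the X and Y boxes come from Rfx5, Rfxap, Rfxank, Creb1, Atf1, Nfya, Nfyb and Nfyc, and of the whole list 5 of 12 were below 0 (median 0.0146). Rfxap was at 0.25 ± 0.11 and the acetyltransferase gene Kat2b at 0.18 ± 0.10, the smallest p of that list. For Rfxap the groups did not overlap, with 356 to 380 normalized counts in Mirc11-/- and 292 to 326 in wildtype libraries. In the other lists the genes with the smallest p were Psme4 at 0.17 and Psme1 at -0.08 among proteasome activators. Lnpep, an aminopeptidase, came after Hspa5 among chaperones, at 0.19. Class I-like genes had Fcgrt, the neonatal Fc receptor, at 0.57 and Procr at 0.32. Class II processing genes had Ifi30 at 0.79 and Ctsl, which encodes cathepsin L, at -0.24. Costimulation and checkpoint genes had Cd40 at 0.75 and Pdcd1lg2 at 0.33. Apart from that of Hspa5, each interval of these genes held 0. Ifi30, a reductase of endosomal antigens, had 1035, 595 and 309 in Mirc11-/- and 406, 336 and 268 in wildtype libraries, and was highest in Mirc11-/- library 1, where the class II chains were lowest. It was called higher by limma without Mirc11-/- library 3 (1.24, adjusted p = 0.0242), as Irf7 was called lower (-0.66, adjusted p = 0.0333).

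Fold changes were also set beside the promoter motifs. The 13 genes with an X2 and Y box pair had a median log2 fold change of -0.24, all 13 below 0, and the 15 other members with a promoter had a median of -0.06, 11 of them below 0. Outside the set, 272 tested genes with such a pair had a median of -0.000600, with 50.4% below 0, and 10990 without it 0.00420, with 49.0% below 0. The pair was held by 7 of 19 class I promoters and by 6 of 8 class II promoters. Class II genes also had the lower median fold change (-0.45, against -0.19 in class I). The groups with and without the pair thus differ in class, and the 2 were not separated. The motifs had been chosen after these promoters were read. The difference within the 28 genes was not tested.

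The deleted cluster makes 3 main mature miRNAs, shown here because their seeds (bases 2 to 8, in capitals) define which transcripts they could pair with.
miR-23a-3p: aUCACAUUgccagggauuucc
miR-27a-3p: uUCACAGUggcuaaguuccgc
miR-24-3p: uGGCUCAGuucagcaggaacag

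They lie at chr8:84208563-84208583, chr8:84208727-84208747 and chr8:84208875-84208896 (plus strand, RefSeq on GRCm38.p6), and miR-24-3p has a second locus in the same table. The study names a paralog cluster, Mirc22, which codes for miR-23b, miR-27b and a further miR-24. That cluster was not the target of the deletion, and its seeds were not compared here. A match of 7 bases to the seed was sought in the 3′ UTR of each gene (the longest in GENCODE M21), which 39 of the 45 genes had. miR-23a-3p had a match in 6 of the 39, which were H2-K1, H2-Q4, H2-Q6, H2-Q7, H2-Q10 and H2-Bl, compared with 16.1% of the 13558 tested genes with a 3′ UTR. miR-27a-3p had one in 2 of the 39, Erap1 and H2-DMa, against 16.8%, and miR-24-3p in 4 of the 39, Tap2, H2-T24, H2-Eb1 and Ciita, against 18.8%. In all, 12 of the 39 (30.8%) held a match, compared with 39.8% of genes, and the 3′ UTRs of the 39 genes were shorter, with a median of 479 bases against 1111. Of these 12 genes, H2-Q10 at 0.08 was the one with a log2 fold change above 0, in a set where 40 of the 45 members were below 0.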

How the data were processed

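RNA-seq libraries of LSK cells were described by the submitters' labels and the study's methods, and genotype and replicate number were taken from the labels. STAR, Cufflinks and the build mm10 are named in the submitters' processing notes, while the supplementary methods give the human build, and mm10 was taken because the symbols are those of mouse genes. Not given in the sources used here are their versions and the annotation used for counting. The authors deposited 1 table under a name for FPKM. Its values are instead a signal that the authors made from read counts, each scaled by a factor of its library and not by the length of the gene, and 100% of the values above 0 were whole in units of that factor within 0.001. The design assumed FPKM and was kept: limma on log2(value + 1), with edgeR and DESeq2 on the recovered reads as alternatives. The 23999 entries hold 23997 symbols, and 2 symbols on 2 entries each were summed. The minimum was a mean of 1 over the 6 libraries, which left 15662 genes for the test.

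Fits were made with limma 3.58.1, edgeR 4.0.16 and DESeq2 1.42.0 in R 4.3.3, and all other steps in Python 3.11.15. The reported limma fit used the 6 libraries and no covariate, unless a left-out library or a covariate is named, and limma, edgeR and DESeq2 were first tested on simulated data with known changes. Intervals are 95% intervals of limma. The labels give the libraries as separate samples, and p-values measure the spread between these 3 preparations per genotype. Same-numbered libraries of the genotypes did not deviate together, as given in the closing section. Levels per kb used the union of exons of GENCODE M21, and promoters and miRNAs came from RefSeq tables on GRCm38.p6. The members, the lists of other genes and the markers were chosen with earlier results of these data known. Every member with a mean of at least 1 was named, with all 6 values for those with an unadjusted p under 0.05, the 3 of each class with the highest mean and B2m, Cd74, Ciita and Nlrc5, and the 2 genes of each other list with the smallest p with Irf1, Psmb5, Psmb6 and Psmb7. Tap1, Psmb9, Psmb10, H2-T23, H2-Q4, H2-Q6, H2-Q7, the class II chains, H2-DMb1, Irf7 and Ifi30 were given in full after their values were seen. A further gene of that rule and a marker are not reported here. March1 and March8, which act on class II, were not matched, since 2 symbols of the table had been turned into dates. Alternatives were 0.1 and 0.5 as pseudocounts, a filter of 10 or none, TMM scaling, quantile normalization, no trend, array weights and a replicate block. Others were leaving out single libraries, edgeR, DESeq2, H2 families summed and the erythroid markers as a covariate. For the summed families, H2-K1, H2-D1 and H2-L were added together, as were all H2-Q entries and all H2-T entries. Reads held by repeated entries were still counted more than once in these sums.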

Additional observations from a re-analysis of the deposited data

How the results depend on the processing

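The count of 0 genes called among 33 class I, 11 class II and 59 other genes of antigen presentation held under every alternative tried except 2. With array weights limma called 12, 7 and 24 of them, beside 36.2% of all genes, in a fit that stopped before its weights converged and gave Mirc11-/- library 2 a weight of 23.9 and the other libraries 0.254 to 1.83. With each library left out in turn the counts ran over 0 to 3 for class I, 0 to 3 for class II and 0 to 2 for the other genes, and the upper end came each time from the fit without Mirc11-/- library 3. With the replicate block limma called 0 of the class I, 0 of the class II and 0 of the other genes, with 10 of the 45 members and 12.2% of all genes at an unadjusted p under 0.05, and it called 30 genes of the whole table, against 5 without the block. The correlation of deviations between same-numbered libraries was 0.0664, -0.0632 and 0.0969, so the numbers were not taken to pair the libraries. Fold changes of 21 members were followed through the alternatives, H2-K1, H2-D1, H2-L and H2-T23 not where H2 families were summed. Of these 21, 3 changed direction. H2-K1 was at 0.059 with the erythroid covariate. Ciita was at 0.18 with that covariate and up to 0.12 with a library left out (-0.68 at the lowest). H2-T23 was between -0.056 and 0.33 with a library left out, and at 0.45 with the erythroid covariate. Members outside these 21 changed direction as well. Among these, H2-Q4 reached 0.04, H2-Q6 0.22, H2-Q7 0.16, H2-M3 0.14 and Cd1d1 0.12 with a library left out. With the erythroid covariate H2-Q4 was at 0.20, H2-Q5 at 0.46, H2-Q6 at 0.43, H2-Q7 at 0.34, H2-M3 at 0.25 and Cd1d1 at 0.22. With all 6 libraries and no covariate each of them was below 0. The median log2 fold change of class I was 0.059 and that of class II -0.11 with the erythroid covariate. With a library left out they ran from -0.33 to -0.05 and from -0.71 to -0.25. The cause of these shifts was not tested. The median of all genes was 0.00246 as deposited and 0.0016 with TMM scaling. At 15029379 to 17051541 reads per library the genes with under 20 normalized counts rest on few reads.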
